A study of Rattus norvegicus with 12 samples.

Results

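The comparison set ARM against normal spinal cord in small RNA libraries of the rat fetus: 6 of the 12 samples of the series, 3 ARM and 3 normal, with all 753 rows of the deposited miRNA table as its features. All 6 samples were lumbosacral spinal cord of Wistar rat fetuses at embryonic day 19. ARM fetuses had anorectal malformations induced with ETU (ethylenethiourea, a teratogen that also blocks thyroid hormone synthesis), and the other fetuses were normal. No ARM sample was without ETU and no normal sample had it, so exposure and malformation cannot be told apart. The labels give no dose, day of exposure, sex, litter or number of pooled cords. Nothing in them says that the replicates, numbered 4 to 6 in both groups, came from separate animals, so each p-value reflects no more than the variation among these samples, which may be technical. The libraries held 11230621 to 13832152 counts, and 467 of the 753 miRNAs passed the expression filter and were tested.

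A miRNA is cut from a hairpin precursor as a duplex with a 5p and a 3p arm, of which usually one is kept and loaded into an Argonaute protein. It finds its target messenger RNAs mainly through its seed, bases 2 to 8 counted from the 5′ end. miRNAs with the same seed form a family with overlapping targets, and both arms of one hairpin come from the same transcript. Arms and families therefore show whether an estimate for one miRNA is shared by its relatives. In the developing spinal cord miR-9 and miR-124 belong to neural progenitors and neurons, and miRNAs embedded in the Hox clusters follow position along the body axis.

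The sequences below are those the results turn on, shown so that shared seeds can be read directly. They are RefSeq mature sequences on the GRCr8 build, 5′ to 3′, with the seed in capitals. The first 3 come from one cluster on chromosome 4, minus strand (miR-182 at chr4:59752249-59752273, miR-96-5p at chr4:59755901-59755923 and miR-183-5p at chr4:59756106-59756127), and have 3 different seeds:
miR-96-5p: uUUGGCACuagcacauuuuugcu
miR-182: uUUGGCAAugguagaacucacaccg
miR-183-5p: uAUGGCACugguagaauucacu
The next 5 form 2 families, miR-19 and miR-196, each with 1 seed:
miR-19a-3p: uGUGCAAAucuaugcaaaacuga
miR-19b-3p: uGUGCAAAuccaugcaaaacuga
miR-196a-5p: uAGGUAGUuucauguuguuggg
miR-196b-5p: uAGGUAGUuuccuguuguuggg
miR-196c-5p: uAGGUAGUuucguguuguuggg
The next 4 are the miR-23 and miR-27 families, with lower estimates in ARM:
miR-23a-3p: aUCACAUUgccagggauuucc
miR-23b-3p: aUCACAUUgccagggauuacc
miR-27a-3p: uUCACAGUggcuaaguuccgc
miR-27b-3p: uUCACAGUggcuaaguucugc
The last 3 come from a group on chromosome X with the largest fold change of any tested miRNA (miR-741-3p):
miR-741-3p: aAAGAUGCcacgcuauguagau
miR-743a-3p: gAAAGACGccaaacuggguaga
miR-743b-3p: gAAAGACAccauacugaauaga

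No miRNA passed the threshold. EdgeR's quasi-likelihood test with Benjamini-Hochberg adjustment called 0 of 467 miRNAs (0%), and its lowest adjusted p was 0.318. At an unadjusted p under 0.05 there were 29 (6.21%), of which 19 had higher estimates in ARM (4.07%) and 10 lower (2.14%). Limma-voom also called 0, with 26 at an unadjusted p under 0.05, and DESeq2 called 6 of 611 (0.982%), with 41. After scaling, the estimates were centred near 0, with 239 higher (51.2%) and 228 lower and a median log2 fold change of 0.0063. The scaling of the libraries (TMM) itself sets most estimates near 0. A shift shared by most miRNAs could therefore not be seen. Groups that did not overlap, with every ARM library on one side of every normal library, were found for 54 miRNAs (11.6%), 29 with ARM higher (6.21%) and 25 with ARM lower (5.35%).

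The data bounded most changes closely. For 414 of the 467 miRNAs (88.7%) the 95% interval of the fold change lay within 2-fold in either direction, and these miRNAs held 99.9% of the counts. For 316 (67.7%), which held 98.2% of the counts, it lay within 1.5-fold. Each interval stands for its own miRNA and is not adjusted for their number. Like the p-values, it reflects no more than the variation among these samples, which may be technical. In bulk tissue fewer cells of a type and less RNA per cell cannot be told apart, so a bound covers the tissue as a whole. Given the scaling, it is also relative to the other miRNAs.

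Precision rose with abundance. The 76 miRNAs at 1000 CPM or more (CPM, counts scaled to a fixed library total after TMM scaling, averaged over the 6 libraries) had a median standard error (SE) of 0.10 on the log2 scale, and all 76 were bounded within 2-fold. At 100 to 1000 CPM 116 of 118 were bounded, and at 10 to 100 CPM 135 of 139. Under 10 CPM the median SE was 0.26 and 87 of 134 were bounded within 2-fold, 24 of them within 1.5-fold. The typical distance from the estimate to its limit was 1.17-fold in the most abundant class and 1.501-fold in the least abundant. Of the 53 miRNAs whose interval reached beyond 2-fold, 22 reached only upward, 28 only downward and 3 both ways. They held 0.0541% of the counts.

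**Figure D1:**
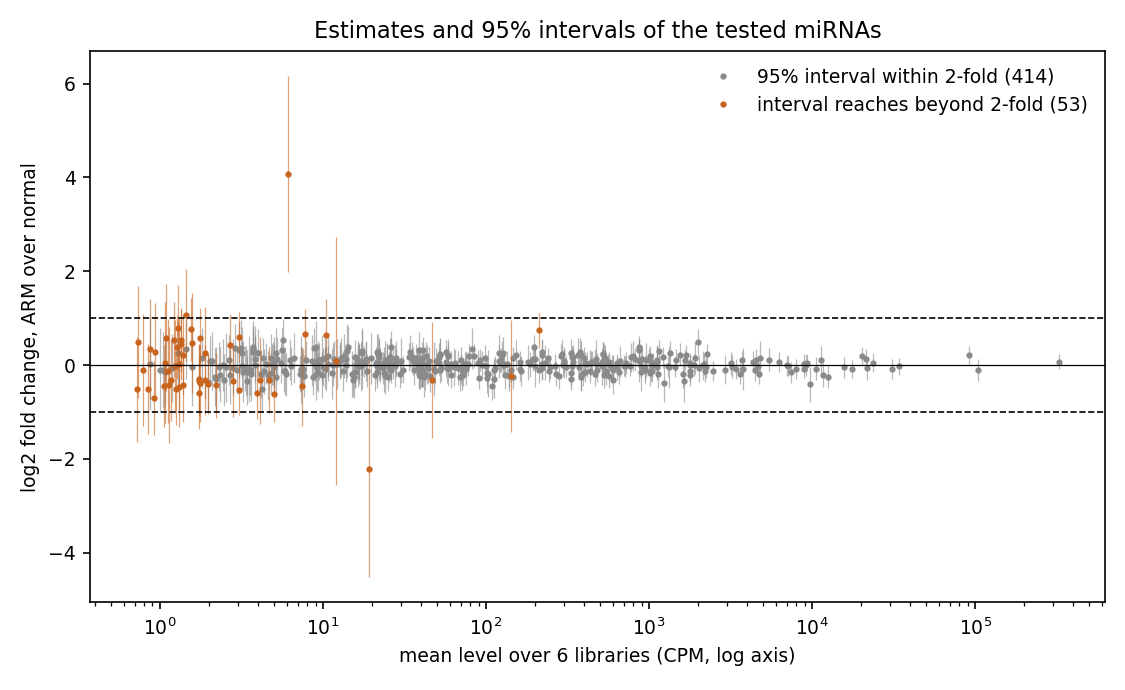
Log2 fold change (ARM over normal) of the 467 tested miRNAs against their mean level in CPM on a log axis; points are edgeR estimates, vertical lines their 95% intervals, dashed lines 2-fold. The intervals narrow to the right, 414 lie within the dashed lines and 53 (orange) reach past them, most of these at low levels.

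The 10 most abundant miRNAs had estimates between -0.11 and 0.22. miR-9a-5p, a neural miRNA, had 313397, 310796 and 326815 CPM in normal and 351324, 341172 and 306873 CPM in ARM. The groups overlapped, since ARM replicate 6 was the lowest of all, and the estimate was 0.07 (SE 0.07), with an interval from -0.09 to 0.23. This was the narrowest interval of all tested miRNAs. miR-10b-5p, let-7i-5p, miR-181a-5p and miR-10a-5p came next.

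Of these abundant miRNAs, the Hox-embedded pair stood highest. miR-10a-5p had 79135, 93201 and 80610 CPM in normal and 102080, 92718 and 99215 CPM in ARM (0.22, SE 0.09, interval 0.03 to 0.41). miR-10b-5p had 18122, 20115 and 18706 CPM in normal and 21795, 21005 and 22302 CPM in ARM (0.19, SE 0.08, interval 0.01 to 0.38). For miR-10b-5p every ARM library lay above every normal one, while for miR-10a-5p normal replicate 5 reached above ARM replicate 5. The edgeR adjusted p was 0.751 for both. The RefSeq sequence of miR-10b-5p begins 2 bases later than that of miR-10a-5p, so by bases 2 to 8 they fall into different families. The other abundant miRNAs were let-7c-5p (0.13, SE 0.10), miR-127-3p (0.05, SE 0.09), let-7i-5p (-0.03, SE 0.08), miR-7a-5p (-0.06, SE 0.11), miR-100-5p (-0.08, SE 0.09), miR-125b-5p (-0.08, SE 0.10) and miR-99a-5p (-0.11, SE 0.11). Each of these was bounded within 1.5-fold. Without normal replicate 4, let-7c-5p was at 0.06, miR-99a-5p at -0.01, miR-125b-5p at -0.01, and miR-127-3p and miR-7a-5p changed sign (-0.01 and 0.07). Without ARM replicate 4 miR-9a-5p was at 0.03, and without ARM replicate 6 miR-100-5p was at -0.03.

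Among miRNAs with separated groups, the sensory miR-183 cluster had the smallest unadjusted p of the higher estimates. miR-96-5p, known from sensory hair cells, had 128, 174 and 172 CPM in normal and 268, 210 and 313 CPM in ARM. miR-182 had 1744, 1605 and 1626 CPM in normal and 2624, 1889 and 2492 CPM in ARM. miR-183-5p had 787, 686 and 785 CPM in normal and 1033, 878 and 1037 CPM in ARM. In all 3 miRNAs ARM replicate 5 was the ARM library closest to normal. On the log2 scale the interval of miR-96-5p ran from 0.37 to 1.11. That of miR-182 ran from 0.21 to 0.78 and that of miR-183-5p from 0.14 to 0.63. These intervals are not adjusted for the number of miRNAs tested, and the miRNAs were picked by their values. The intervals therefore cannot show that a level differed. The edgeR adjusted p was 0.318, 0.448 and 0.570.

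The next higher estimates belonged to the miR-19 and miR-196 families and to less abundant miRNAs. miR-19a-3p and miR-19b-3p, parts of the growth-promoting miR-17 clusters, are taken up with their family below, as is miR-196a-5p. miR-410-5p, from the imprinted region on chromosome 6, had 4.24, 5.47 and 8.23 CPM in normal and 9.45, 9.82 and 9.19 CPM in ARM (0.66, SE 0.24). Its ARM libraries lay close together and its normal libraries were spread. miR-673-5p, from the same region, had 4.48, 4.89 and 4.46 CPM in normal and 7.79, 5.396 and 6.89 CPM in ARM (0.54, SE 0.20). miR-135b-3p stood at 22.7, 25.2 and 20.4 CPM in normal and 33.2, 26.9 and 29.5 CPM in ARM (0.39, SE 0.15). miR-138-1-3p stood at 1.31, 0.912 and 1.23 CPM in normal and 2.38, 1.77 and 1.74 CPM in ARM (0.76, SE 0.30). The edgeR adjusted p of each was 0.751.

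Lower estimates with separated groups were led by miR-187-3p. miR-187-3p had 149, 119.5 and 107 CPM in normal and 89.8, 90.2 and 93.7 CPM in ARM (-0.46, SE 0.13, edgeR adjusted p 0.570). Its ARM libraries differed little, and normal replicate 4 was the highest library; without it the estimate was -0.31. miR-192-5p and miR-194-5p lie next to each other on chromosome 1 (chr1:212994232-212994252 and chr1:212994038-212994059, plus strand) and are known from gut, liver and kidney. miR-192-5p had 354, 364 and 381 CPM in normal and 280, 327 and 287 CPM in ARM (-0.30, SE 0.11). miR-194-5p had 174, 147 and 156 CPM in normal and 124, 141 and 137 CPM in ARM (-0.25, SE 0.11). In miR-192-5p the groups were well apart, and in miR-194-5p ARM replicate 5 came close to normal replicate 5. The reference lists a further locus for miR-194-5p, and its reads are not told apart by locus.

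The lymphocyte miRNA miR-150-5p had 105, 92.8 and 100.02 CPM in normal and 83.5, 84.6 and 79.6 CPM in ARM (-0.27, SE 0.11). miR-129-5p, enriched in neurons, had 1801, 1953 and 2003 CPM in normal and 1757, 1670 and 1512 CPM in ARM (-0.22, SE 0.10). The gap between the groups was narrow in miR-129-5p and wider in miR-150-5p. miR-1306-3p (-0.52, SE 0.21), miR-449a-5p (-0.61, SE 0.27; -0.24 without normal replicate 6), miR-27b-3p (-0.19, SE 0.10), miR-1839-5p (-0.25, SE 0.12; -0.11 without normal replicate 4) and miR-675-3p (-0.69, SE 0.36) completed the 10. miR-449a belongs to multiciliated cells and miR-675 is cut from the imprinted H19 transcript. The edgeR adjusted p of all of these was 0.751.

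**Figure D2:**
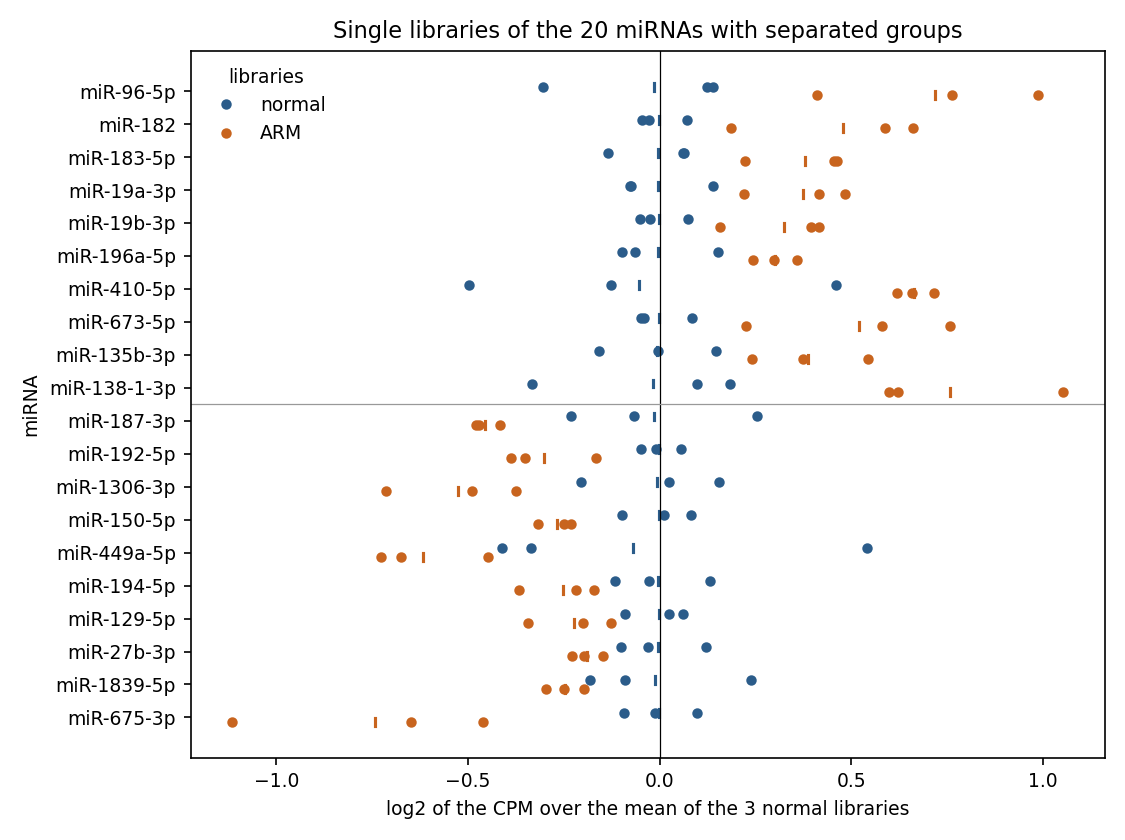
Each library of the 10 higher and 10 lower miRNAs with separated groups and the smallest unadjusted p, as log2 of its CPM over the mean of the 3 normal libraries; dots are single libraries (blue normal, orange ARM) and short bars group means. In the upper rows all orange dots lie to the right of the blue ones and in the lower rows to the left, since the miRNAs were chosen for that; the gap is narrow for miR-449a-5p, miR-194-5p, miR-129-5p, miR-27b-3p and miR-1839-5p.

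No seed family passed the threshold either. The reference held a sequence for 688 of the 753 miRNAs and 433 of the 467 tested ones, and counts summed over shared seeds gave 357 tested families. EdgeR called 0 of 357 (0%), and the lowest adjusted p was 0.294. At an unadjusted p under 0.05 there were 25 (7%). Limma-voom called 0 of the 357, with 22 at an unadjusted p under 0.05. DESeq2 called 6 families, with 34 at an unadjusted p under 0.05. It was run without the expression filter, so its counts are not shares of the 357. Only 48 families had 2 or more tested members, 124 miRNAs in all. Among these 48, 4 had an unadjusted p under 0.05, and the groups did not overlap in 11, against 46 of all 357 (12.9%). Of the 48 families, 46 were bounded within 2-fold and 44 within 1.5-fold.

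Families of several members were often split in direction. All members lay on the same side of 0 in 29 of the 48 families (60.4%), 15 higher and 14 lower, and 19 were split. In families of 2 this held for 25 of 35, and in families of 3 or more for 4 of 13. In most families 1 member dominated the sum, with a median of 81.9% of the family's counts, so the summed estimate mostly followed that member. How the counting method assigned reads shared by near-identical members, such as let-7a-5p and let-7c-5p, is not given in the sources used here, and values of single members are uncertain to that extent.

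The miR-19 family had the smallest p of the families with several members. Its summed level was 905, 991 and 918 CPM in normal and 1247, 1055 and 1242 CPM in ARM, so the groups did not overlap (0.33, SE 0.11, edgeR adjusted p 0.580). The interval ran from 1.07-fold to 1.48-fold. It is not adjusted for the number of families, and the family was picked by its p, so it cannot show a rise. Both members had higher estimates in ARM. miR-19b-3p had 740, 806 and 753 CPM in normal and 1023, 855 and 1007 CPM in ARM (0.33, SE 0.11). miR-19a-3p had 162, 188 and 162 CPM in normal and 238, 198 and 227 CPM in ARM (0.38, SE 0.12). In both, the lowest ARM library was again replicate 5. The sequences above differ by 1 base outside the seed, so the members may share reads.

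The miR-196 family, embedded in the Hox clusters and known to repress posterior Hox genes, had 1385, 1224 and 1178 CPM in normal and 1601, 1460 and 1559 CPM in ARM. Its groups did not overlap (0.29, SE 0.10, edgeR adjusted p 0.580). miR-196a-5p made up 82.6% of it and had 1152, 991 and 968 CPM in normal and 1330, 1227 and 1276 CPM in ARM (0.30, SE 0.10). miR-196b-5p was at 0.27 (SE 0.12) with overlapping groups and miR-196c-5p at 0.05 (SE 0.15).

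The family of miR-410-5p and miR-494-5p, both from the imprinted region on chromosome 6, summed to 5.08 to 9.88 CPM in normal and 10.9 to 11.5 CPM in ARM (0.60, SE 0.23), or 0.38 without normal replicate 4. The miR-17 seed family of miR-20a-5p, miR-93-5p, miR-17-5p, miR-106b-5p and miR-20b-5p, linked to proliferation, was at 0.19 (SE 0.09), with members at 0.22, 0.27, 0.16, 0.03 and -0.10 in this order. Its groups did not overlap as a sum although those of every single member did. The miR-130 and miR-301 family was at 0.18 (SE 0.11), or 0.09 without normal replicate 4, with all 3 tested members higher: miR-130a-3p 0.15, miR-301b-3p 0.27 and miR-130b-3p 0.16. The edgeR adjusted p of these 3 families was 0.580, 0.702 and 0.709.

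On the lower side, the miR-23 and miR-27 families come from the same 2 clusters, on chromosomes 17 and 19. The miR-23 family had 184, 203 and 179 CPM in normal and 149.8, 155 and 172 CPM in ARM (-0.25, SE 0.11). The miR-27 family had 3761, 4280 and 3895 CPM in normal and 3432, 3405 and 3585 CPM in ARM (-0.20, SE 0.09). In both families the groups did not overlap and both members were lower: miR-23b-3p -0.28, miR-23a-3p -0.19, miR-27b-3p -0.19 and miR-27a-3p -0.23. The family of the 2 miR-24 5p arms, from the same clusters, was at -0.23 (SE 0.13), made up of miR-24-2-5p at -0.26 and miR-24-1-5p at 0.26. The miR-148 and miR-152 family was at -0.21 (SE 0.10) with all 3 members lower (miR-148a-3p -0.22, miR-148b-3p -0.04, miR-152-3p -0.38) and overlapping groups, and the miR-34 and miR-449 family at -0.15 (SE 0.10), split into miR-34b-5p at 0.26 and, lower, miR-34c-5p at -0.14, miR-34a-5p at -0.11 and miR-449a-5p, with groups that did not overlap. Leaving out 1 ARM library brought the miR-24 5p family to -0.15 and the miR-148 family to -0.14 (replicate 6), and the miR-34 family to -0.10 (replicate 4). The edgeR adjusted p of these 5 families was between 0.645 and 0.719.

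The 8 families with 4 or more tested members were all bounded within 1.5-fold. The let-7 family, a marker of differentiation with 8 tested members, summed to 87356, 83486 and 87980 CPM in normal and 84527, 87689 and 87393 CPM in ARM. Its estimate was 0.0044 (SE 0.06), with an interval from 0.92-fold to 1.09-fold. Single members ranged from -0.10 for let-7f-5p to 0.13 for let-7c-5p, 2 higher and 6 lower, so the flat sum held small opposite estimates. The sign of the sum turned under other scalings (-0.01 with total counts). The miR-30 family was at -0.02, the miR-15 and miR-16 family at -0.03, the miR-25 and miR-92 family at 0.03 and the miR-181 family at 0.07 (0.03 without ARM replicate 6, 0.10 without ARM replicate 4). All 4 members of the let-7 3p family (let-7a-1-3p and its relatives) were higher, with a sum at 0.15 (SE 0.11), or 0.07 without normal replicate 6; let-7a-1-3p and let-7c-2-3p have the same sequence, yet the table gives them different counts.

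**Figure D3:**
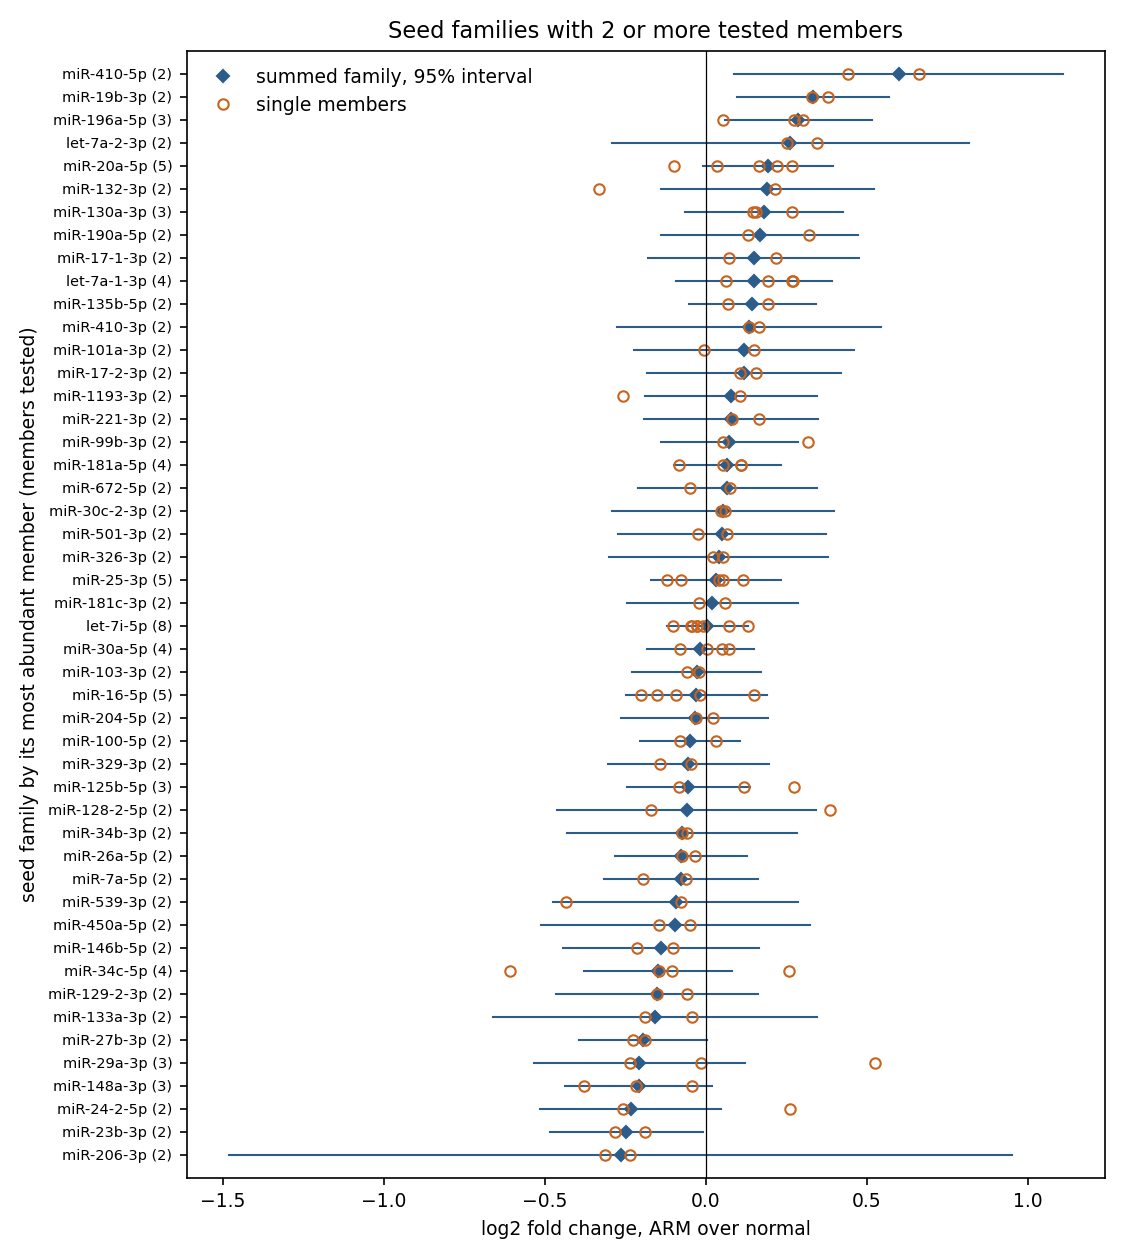
Log2 fold change (ARM over normal) of the 48 seed families with 2 or more tested members, each named by its most abundant member with the number tested; diamonds and lines are summed families with 95% intervals, open circles single members. Most lines cross 0, the let-7 family (let-7i-5p) has the shortest, and in 19 families circles lie on both sides of 0.

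The arms of one hairpin agreed in direction only somewhat more often than not. Arms were paired by the shared stem of their names, which gave 153 pairs, called hairpins here, with both arms tested. A stem can cover several loci (miR-9a-5p has 3). An arm numbered by locus whose partner is not, such as miR-24-1-5p, stayed unpaired. In 93 of the 153 pairs (60.8%) the estimates had the same sign, 48 both higher and 45 both lower. In 60 they pointed in opposite directions. Across the 153 pairs Pearson's r of the arms' log2 fold changes was 0.20 and Spearman's rho 0.25, as a description of pairs that share 6 libraries. With the lesser arm at 100 CPM or more, r was 0.46 and rho 0.33 over 33 pairs, of which 21 had the same sign (63.6%). With the lesser arm under 10 CPM, r was 0.14 over 69 pairs. Thus r was higher in the deeper pairs, while the share with the same sign stayed between 59.4% and 63.6%.

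Of the 16 hairpins with an arm at an unadjusted p under 0.05, the other arm had the same sign in 12. In 1 of them both arms reached that level. This was miR-126a, the endothelial miRNA hairpin, whose 3p arm had 13986, 8987 and 10394 CPM in normal and 9326, 9041 and 6801 CPM in ARM (-0.41, SE 0.17) and whose 5p arm had 767, 592 and 654 CPM in normal and 563, 603 and 449 CPM in ARM (-0.32, SE 0.14). Normal replicate 4 was highest and ARM replicate 6 lowest in both arms, and the groups overlapped. Without normal replicate 4 the 3p estimate was -0.21, and without ARM replicate 6 the 5p estimate was -0.20. The ratio of its arms hardly moved, with a difference of 0.08 (SE 0.14) between the groups.

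Unequal change of the arms was tested through the log2 ratio of 5p to 3p counts, which needs no library size. Limma called 0 of 153 ratios (0%), the lowest adjusted p being 0.844 and 6 (3.92%) having an unadjusted p under 0.05, and edgeR's diffSpliceDGE also called 0. The groups did not overlap in 9 ratios (5.88%). The 95% interval of the change in ratio lay within 2-fold for 125 pairs (81.7%), and for all 84 pairs with a lesser arm at 10 CPM or more. The 5p arm was the major arm in 87 hairpins and the 3p arm in 66, by a median of 15.9-fold. The major arm differed between the group means in 4 hairpins.

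The ratios with the smallest unadjusted p were mostly of hairpins with a rare arm. miR-770, from an intron of the imprinted Meg3 transcript, had log2 ratios of 1.06, 1.39 and 1.47 in the normal libraries and 1.84, 2.21 and 1.88 in the ARM libraries (difference 0.68, SE 0.26). Its groups did not overlap, and its 3p arm had the lower estimate (-0.60) while its 5p arm stood at 0.02. miR-99a, whose 5p arm is the second most abundant miRNA of the libraries, stood at 11.84, 11.28 and 11.50 in the normal libraries and 11.15, 11.27 and 10.92 in the ARM libraries (-0.43, SE 0.17; -0.28 without normal replicate 4). Here the rare 3p arm was higher (0.32) and the 5p arm at -0.11. The ratios of miR-410 (0.57, SE 0.24), miR-132 (-0.44, SE 0.19), miR-376a (-0.45, SE 0.21) and miR-23b (0.64, SE 0.31) had overlapping groups. Leaving out 1 library brought miR-132 to -0.29 (without normal replicate 4) or -0.28 and miR-376a to -0.24 (without ARM replicate 4) and miR-410 to 0.38 (without normal replicate 5). The limma adjusted p of all 6 was 0.844. In miR-132, an activity-regulated neuronal miRNA with arms of nearly equal level, the major arm differed between libraries.

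**Figure D4:**
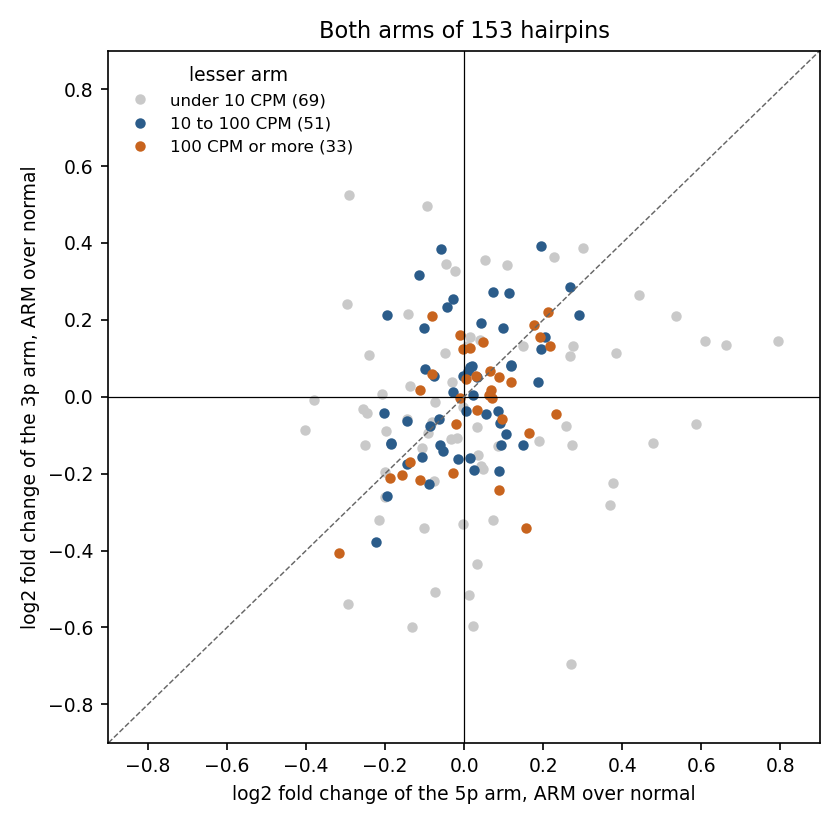
Log2 fold change (ARM over normal) of the 5p arm against that of the 3p arm for 153 hairpins, coloured by the mean level of the lesser arm; the dashed line marks equal change. Hairpins with a rare arm (grey) scatter most widely, and 93 of the 153 points lie in the lower left or upper right field.

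The widest intervals belonged to miR-6321, miR-122-5p, miR-741-3p, miR-133a-5p and miR-764-5p, in which single libraries differed many-fold within a group. miR-741-3p was the only tested member of a group of 10 miRNAs on chromosome X, minus strand, all within chrX:150444098-150488198, which in rodents are known from testis. Its counts were 8, 1 and 16 in the normal libraries and 182, 190 and 13 in the ARM libraries (4.08, SE 0.94, interval 1.98 to 6.17, edgeR adjusted p 0.318). ARM replicate 6 was at the normal level, and the other ARM libraries were above it. In all 10 miRNAs of the group ARM replicates 4 and 5 had more counts than each of the other 4 libraries. The other 9 did not pass the expression filter. Summed over the 10, the normal libraries held 38, 9 and 35 counts and the ARM libraries 516, 522 and 45. They have 10 different seeds, so summing by seed did not pool them. Of the 6 miRNAs called by DESeq2, 4 belonged to this group and the others were miR-96-5p and miR-182. Without ARM replicate 6 edgeR called 9 miRNAs, all of this group. The group was picked out by its values, so they are a description only.

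The estimates varied weakly with the annotated length of the mature miRNA. Over the 433 tested miRNAs with a sequence, Spearman's rho between length and log2 fold change was 0.26, and 0.43 over the 179 at 100 CPM or more, as a description of miRNAs that share 6 libraries. Of the 101 miRNAs of 21 bases 41 had a higher estimate in ARM (40.6%), of the 218 of 22 bases 105 (48.2%), and of the 80 of 23 bases 57 (71.2%). Their median log2 fold changes were -0.09, -0.0034 and 0.09. Against the mean of all libraries, those of 23 bases stood lowest in normal replicates 5 and 6 (medians -0.06 and -0.08), near 0 in normal replicate 4 and at 0.06, 0.03 and 0.06 in ARM replicates 4, 5 and 6. Over all lengths, rho between length and a library's deviation was 0.0066, -0.19 and -0.26 in normal replicates 4, 5 and 6 and 0.17, -0.12 and 0.22 in ARM replicates 4, 5 and 6. ARM replicate 5 thus had the sign of normal replicates 5 and 6, with medians of 0.03 at 21 bases and -0.05 at 24 bases or more, so the groups overlapped in this measure. GC content had a rho of 0.07 with the log2 fold change.

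Length was also compared among the named miRNAs. Of the 10 higher miRNAs with separated groups, 4 were 23 bases or longer (miR-96-5p, miR-182 and both miR-19 members). Of the 9 lower ones with a sequence, 0 were. Among all 433 tested miRNAs with a sequence, 80 had 23 bases and 18 had 24 or more. The named miRNAs were chosen by their values, so these counts are a description only. With each library corrected for the median of its length class, edgeR called 0 of 433, with 27 at an unadjusted p under 0.05. The estimate was then 0.64 for miR-96-5p, 0.36 for miR-182, 0.38 for miR-183-5p, 0.28 for miR-19a-3p, 0.23 for miR-19b-3p and 0.12 for miR-10a-5p. It was -0.24 for miR-192-5p and -0.13 for miR-27b-3p, and miR-9a-5p turned to -0.02. miR-196a-5p, miR-187-3p and miR-410-5p, of 22 and 21 bases, were at 0.30, -0.46 and 0.72. The length of the sequenced reads is not in the table.

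**Figure D5:**
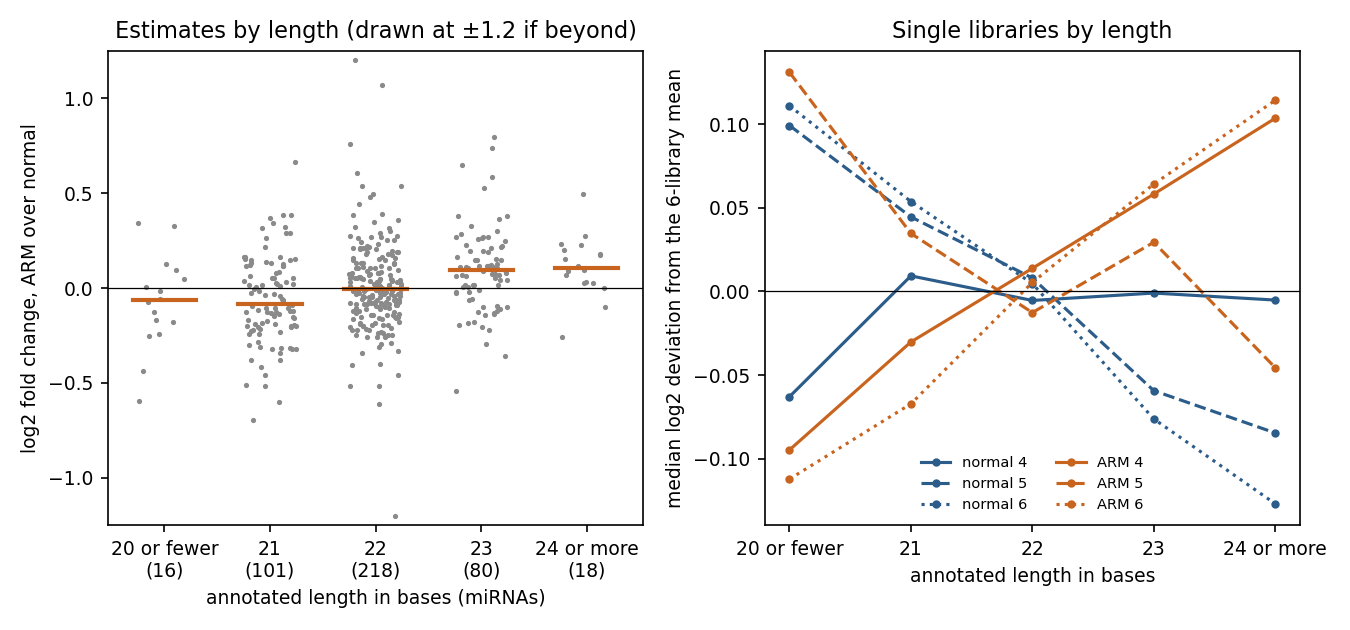
Left, log2 fold change (ARM over normal) of 433 tested miRNAs by annotated length, with class medians as orange bars; right, the median log2 deviation of each length class from the 6-library mean in each library (blue normal, orange ARM). The class medians rise from -0.09 at 21 bases to 0.09 at 23 bases, and the lines of normal replicates 5 and 6 fall while those of ARM replicates 4 and 6 rise; ARM replicate 5 is high at the short end and below 0 at the long end, and normal replicate 4 is nearly flat from 21 bases on.

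Neuron-enriched and Hox-embedded miRNAs, the markers of neural and of positioned tissue, were both abundant. The 19 neuron-enriched miRNAs were all tested and summed to 353025 to 401485 CPM per library, and the 11 Hox-embedded ones to 99958 to 126818 CPM. A single miRNA made up most of each sum. miR-9a-5p averaged 317003 CPM in normal and 333123 CPM in ARM, and miR-10a-5p 84316 and 98004 CPM. Of the neuron-enriched miRNAs 7 had higher and 12 lower estimates, with a median of -0.06 against 0.0063 over all tested miRNAs. Hox-embedded ones were 10 higher and 1 lower (median 0.22), and the list of miR-17 clusters and related miRNAs 19 and 4 (0.15). That list counts both arms of the related miR-92b as higher (3p 0.05, 5p 0.03). The oligodendrocyte lineage was 6 and 2 (0.16) and the miR-183 cluster 4 and 0 (0.44). The 2 lower ones of the oligodendrocyte lineage were both arms of miR-338 (3p -0.54, SE 0.24, and 5p -0.29, SE 0.19), against 6 higher from miR-219a and miR-138. Motor neuron miRNAs were 2 and 3 (-0.24). The 2 higher ones were miR-17-5p (0.16) and miR-17-1-3p (0.22), which are also counted in the miR-17 clusters. The 3 lower ones were miR-218a-5p (-0.24, SE 0.11), miR-218a-2-3p (-0.25, SE 0.28) and miR-375-3p (-0.25, SE 0.13). EdgeR called no member of any list in the fit on phenotype alone, while DESeq2 called miR-96-5p and miR-182 of the miR-183 cluster. With a replicate block, a pairing the labels do not give, edgeR called miR-96-5p, miR-1-3p, miR-206-3p and miR-122-5p. These lists were chosen with earlier results known and carry no test.

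miRNAs of other tissues were present at lower levels. The summed muscle list ranged from 226 to 425 CPM in normal and from 167 to 489 CPM in ARM (2 higher and 4 lower of 6 tested, miR-206-3p -0.24, miR-499-5p 0.08). Without ARM replicate 5 miR-206-3p was at 0.23, and without normal replicate 5 miR-499-5p was at -0.09. The endothelial list ranged from 9579 to 14753 CPM in normal and from 7250 to 9889 CPM in ARM, with both tested members lower. The liver, gut and kidney list ranged from 517 to 616 CPM in normal and from 412 to 470 CPM in ARM, with all 4 lower; miR-122-5p (-2.21, SE 1.04) was at 0.64 without normal replicate 4. Mesenchymal miRNAs were 2 higher and 5 lower (miR-143-3p -0.16, miR-199a-5p 0.16), epithelial ones 1 and 5 (miR-203a-3p -0.18, miR-205 0.65) and leukocyte ones 2 and 1 (miR-155-5p 0.12). Leaving out 1 library brought miR-205 to 0.05 (ARM replicate 4), miR-199a-5p to -0.04 (ARM replicate 4), miR-143-3p to -0.08 (ARM replicate 6), miR-203a-3p to 0.10 and miR-155-5p to 0.02 (normal replicate 6). No library held a count of the 4 erythroid miRNAs listed in the table, nor of miR-142-3p and miR-142-5p, which leukocytes express strongly. In all, 142 miRNAs had no count in any library, and how reads were assigned is not given. The leukocyte miR-150-5p was counted, at a mean of 99.3 CPM in normal and 82.6 CPM in ARM. Whether the zeros came from the tissue or from the counting was not tested, so they do not show that blood cells were absent. The part of these tissues in the estimates above was not tested.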

How the data were processed

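Small RNA libraries of 3 ARM and 3 normal samples of lumbosacral cord were compared. Per the file headers, the deposited table holds a count and a TPM for each mature miRNA. The deposited TPM is the count divided by its column's sum and rescaled, to within 0.000519. Cufflinks 2.1.1, Cuffdiff, TopHat2 2.0.9, CASAVA 1.8 and a mouse build appear, without roles, in the submitters' processing notes. Which tool and annotation produced the miRNA counts is not given in the sources used here.

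The counts were tested with edgeR 4.0.16 in R 4.3.3 (TMM, default expression filter, quasi-likelihood fit on phenotype alone, Benjamini-Hochberg threshold 0.05). Each SE was obtained from the log2 fold change and the F statistic (size of the change over the root of F), and 95% intervals use the fit's 10.5 degrees of freedom. The floor of 3 counts lay at 0.209 to 0.275 CPM, depending on the library, and covers counting error only. Seeds were bases 2 to 8 of RefSeq sequences (GRCr8); family counts were summed over all rows with that seed. Arm ratios, log2 of 5p over 3p counts with 0.5 added to each, were tested with limma 3.58.1 for names that share a stem.

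Named miRNAs were up to 10 higher and 10 lower by smallest unadjusted p with separated groups and at least 10 counts in the higher group, the 10 most abundant, 5 higher and 5 lower families of 2 or more tested members and all of 4 or more, the 6 arm ratios with the smallest p and hairpins with both arms under 0.05, the leading members of each list, and the 5 narrowest and 5 widest intervals. Features, lists and tests were chosen with earlier results of these data known. The pipeline was tested on simulated data. Alternatives were DESeq2 1.42.0, its size factors, total counts, scaling without the 5 most abundant miRNAs, no filter, a filter at 10 CPM, limma-voom, a replicate block, seeds of bases 2 to 7, families without their most abundant member, a pseudocount of 5, diffSpliceDGE and each library left out; a length correction was added after seeing the data. The lncRNA libraries were not used here.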

Additional observations from a re-analysis of the deposited data

How the results depend on the processing

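EdgeR's count of 0 called miRNAs and 0 called families also held with DESeq2's size factors, total-count scaling, scaling without the 5 most abundant miRNAs, no filter, a filter at 10 CPM and limma-voom, and no arm ratio was called under any alternative run. DESeq2 called 6 miRNAs and 6 families, and leaving out 1 library gave 0 to 9 of each; the 9 came without ARM replicate 6. The labels do not pair the samples. Same-numbered libraries had correlations of their deviations from the group means of -0.10, -0.15 and 0.03 over all tested miRNAs. These correlations cannot exclude a pairing that affects some miRNAs. With a replicate block edgeR called 5 miRNAs (miR-1-3p, miR-122-5p, miR-206-3p, miR-741-3p and miR-96-5p) and 5 families. The lowest edgeR adjusted p in that fit was 4.5e-24 for miRNAs. A block leaves few degrees of freedom in 6 libraries, so these calls are uncertain. In the fit on phenotype alone, miR-122-5p and miR-206-3p changed sign with 1 library left out, while miR-741-3p and miR-96-5p did not. Arms had the same sign in 52 of 84 pairs under the 10 CPM filter and in 78 to 101 pairs with 1 library left out, and the number bounded within 2-fold was 389 to 405 with 1 library left out.

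Of 74 named features, 7 changed sign under settings other than a left-out library and 17 when a library was left out; the cause was not tested. The family of let-7i-5p was at -0.013 with total counts and -0.0013 without the 5 most abundant miRNAs. miR-133a-5p was at -0.30 with limma-voom and -0.041 with the replicate block, where miR-6321 was at -0.50. Without their most abundant member the family of miR-24-2-5p was at 0.25 and the family of miR-30a-5p at 0.047. With the length correction, chosen after seeing the data, miR-9a-5p was at -0.025, miR-181a-5p at -0.043 and miR-6321 at -0.037.

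With 1 library left out, the estimate ran from -0.010 to 0.097 for miR-127-3p, from -0.14 to 0.069 for miR-7a-5p, from -0.0021 to 0.088 for miR-25-3p, from -0.086 to 0.014 for let-7i-5p, from -1.19 to 0.71 for miR-6321, from -2.84 to 0.64 for miR-122-5p, from -1.03 to 0.19 for miR-764-5p, from -0.31 to 0.53 for miR-133a-5p, from -0.093 to 0.22 for miR-499-5p, from -0.37 to 0.096 for miR-203a-3p, from -0.042 to 0.32 for miR-199a-5p and from -1.05 to 0.23 for miR-206-3p. It ran from -0.013 to 0.092 for the family of miR-25-3p, from -0.073 to 0.013 for the family of miR-16-5p, from -0.061 to 0.021 for the family of miR-30a-5p, from -0.025 to 0.013 for the family of let-7i-5p and from -0.0011 to 0.13 for the arm ratio of miR-126a. Under 10 CPM, 47 of 134 miRNAs had no bound of 2-fold; how far counting depth or differences between libraries of a group widened their intervals was not tested.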

Other observations

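Several miRNAs differed many-fold between libraries of 1 group. miR-6321 had 0, 182 and 255 counts in the normal libraries and 296, 1 and 141 in the ARM libraries; its 0 in normal replicate 4 allows up to 0.245 CPM, for counting error only. The liver miRNA miR-122-5p had 1059, 48 and 62 counts in the normal libraries and 80, 17 and 164 in the ARM libraries, with normal replicate 4 far above the rest. The muscle miRNA miR-206-3p had 2374, 1056 and 2386 counts in the normal libraries and 2681, 371 and 1671 in the ARM libraries, lowest in ARM replicate 5. The epithelial miRNA miR-205 had 104, 90 and 110 counts in the normal libraries and 236, 84 and 134 in the ARM libraries, highest in ARM replicate 4. miR-764-5p had 27, 14 and 7 counts in the normal libraries and 5, 19 and 11 in the ARM libraries, and miR-133a-5p, a muscle miRNA, had 18, 7 and 15 counts in the normal libraries and 17, 2 and 22 in ARM. In each of these 6 the groups overlapped.

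miR-96-5p and miR-182 differ in the last base of their seeds and share bases 2 to 7. Summed over bases 2 to 7, the counts gave 337 families, of which edgeR called 0, with 20 at an unadjusted p under 0.05. The sum of miR-96-5p and miR-182 was at 0.52 (SE 0.13, edgeR adjusted p 0.223).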
